A study of Caenorhabditis elegans with 2 samples.

Results

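The 7 genes pbs-1 to pbs-7 encode the beta subunits of the 20S proteasome core of Caenorhabditis elegans. They were taken by name out of 19973 nuclear protein-coding genes, and all 7 were found in the annotation. The data were maps of a SKN-1 fusion to eGFP, a green fluorescent protein used here as a tag, made by chromatin immunoprecipitation and sequencing (ChIP-seq) of whole worms. Both samples were L3 larvae of both sexes from strain OP342, which carries the mutation unc-119(ed3) and the transgene wgIs342. The labels number them biological replicates 1 and 2 of a single group, with no second condition. The label for the antibody names skn-1, while the sample description names the eGFP fusion, and neither names an isoform of SKN-1 or the promoter of the transgene. Whole animals were used, so a site bound strongly in few cells and one bound weakly in many cannot be told apart.

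The 20S core is a barrel of stacked rings, with outer rings of alpha subunits that gate entry and inner rings of beta subunits that form the proteolytic chamber. By homology with yeast and mammals, pbs-1, pbs-2 and pbs-5 encode the catalytic subunits, which carry the caspase-like, trypsin-like and chymotrypsin-like activities, while pbs-3, pbs-4, pbs-6 and pbs-7 encode structural subunits without an active site. SKN-1 is the worm relative of the mammalian Nrf factors. An endoplasmic reticulum-associated form of SKN-1 is known to raise expression of proteasome subunit genes when the proteasome is impaired, as Nrf1 does in mammals.

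The sequences under 2 of the summits are shown as examples that differ. The pbs-1 peak was narrow and holds the full SKN-1 consensus close to its summit. The pbs-6 peak was the weakest of the beta subunit peaks past the reproducibility threshold. Its match to the consensus lay 102.5 bp from its summit, outside the bases shown. Both sequences are intergenic and are written 5′ to 3′ on the strand of the gene, from the RefSeq WBcel235 (ce11) genome. Capitals mark the core of the consensus (ATCAT or GTCAT, read on either strand, so that ATGAC is GTCAT on the other strand). The first is the whole pbs-1 peak, chrIV:1709871-1709974, minus strand, and the second the bases around the pbs-6 summit, chrIII:8244197-8244297, minus strand.
pbs-1: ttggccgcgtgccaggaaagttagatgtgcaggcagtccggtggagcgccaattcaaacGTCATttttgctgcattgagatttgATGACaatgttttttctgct
pbs-6: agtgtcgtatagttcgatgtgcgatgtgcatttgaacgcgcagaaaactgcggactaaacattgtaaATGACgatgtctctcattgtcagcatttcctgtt

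Of the beta subunit genes, 6 of 7 had a SKN-1 summit in the promoter (1000 bp before to 200 bp after an annotated 5′ end) in the list of peaks that passed the irreproducible discovery rate (IDR) threshold. Of all protein-coding genes, 7.75% had one. The exception was pbs-5, which encodes the chymotrypsin-like subunit, and a strong summit lay a short way beyond its window. Each of the 6 genes had exactly 1 such summit. The authors' signal value is a score of each peak in a unit that the sources used here do not name. It was 144 for pbs-4, 131 for pbs-7, 84.5 for pbs-1, 67.1 for pbs-3, 64.5 for pbs-2 and 35.6 for pbs-6. The median over these 6 was 75.8, beside 39.3 over the 1547 genes with a promoter summit. The interquartile range of those genes was 31.7 to 53.9, so 5 of the 6 lay above it and pbs-6 lay within it. Among the 1778 peaks of the list the ranks were 34, 38, 115, 200, 222 and 1004, in the same order as the values.

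**Figure D1:**
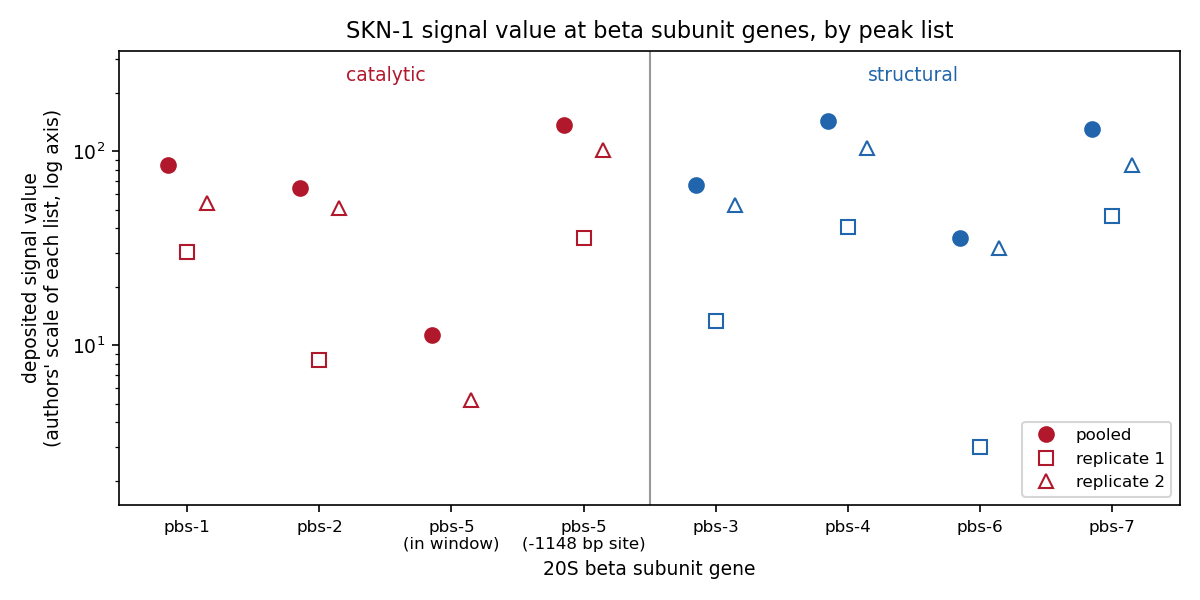
Deposited signal value (log axis, each list on its own scale) at each beta subunit gene in the pooled list (filled circles), replicate 1 (squares) and replicate 2 (triangles), 1 value per list with no error. The pooled value ran from 35.6 at pbs-6 to 144 at pbs-4, the 2 columns for pbs-5 give the weak line inside its window (11.3) and the site at -1148 bp (136), and pbs-6 had the lowest replicate 1 value of 2.99.

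Among the catalytic subunit genes, pbs-1 (WBGene00003947, chromosome IV, minus strand) had its summit at -157 bp, where a minus sign means upstream of the 5′ end. The signal value was 30.1 in replicate 1, 54.0 in replicate 2 and 84.5 in the pooled list, with ranks of 81 of 22350 lines, 158 of 30000 and 115 of 30000. Both replicates therefore held this site among their strongest lines, and their summits lay 3 bp apart. The peak was 104 bp wide, against the usual 330 bp of the pooled list.

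The second catalytic gene, pbs-2 (WBGene00003948, chromosome I, minus strand), had its summit at -308 bp, the farthest of the 6 (peak 12968423 to 12968752). Its signal value was 8.36 in replicate 1, 50.7 in replicate 2 and 64.5 in the pooled list. The replicates ranked it apart, at 1932 in replicate 1 and 190 in replicate 2. Their summits lay 50 bp from each other.

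For the remaining catalytic gene, pbs-5 (WBGene00003951, chromosome I, minus strand), the window held no summit past the threshold. It held a single pooled line at -436 bp, inside coding sequence of the neighbouring gene K05C4.2, with a signal value of 11.3 and a rank of 7606. Replicate 2 held it at 5.20, with a rank of 15122, and replicate 1 had no summit in the window. These lists were deposited as peaks together with background. Some line in the window was common: 45.8% of all genes had one in the pooled list, 45.4% in replicate 2 and 36.3% in replicate 1. The share of genes with a line at least as strong as that of pbs-5 was not computed. Its signal value lay above the median of 7.28 in the pooled list and just below that of 5.22 in replicate 2. The −log10 of its q-value was 2.23 and 1.54 in these lists.

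The summit nearest to pbs-5 past the threshold lay at -1148 bp, at position 14721625 of chromosome I (peak 14721519 to 14721709). Its signal value was 35.7 in replicate 1, 101 in replicate 2 and 136 in the pooled list, with ranks of 49, 37 and 37. The pooled value thus lay between those of pbs-7 and pbs-4. It lay in an intron of K05C4.2, whose RefSeq product is a jagunal homolog, at -270 bp from one of its annotated 5′ ends and 354 bp past the other. K05C4.2 ends 110 bp before pbs-5 starts, on the same strand. Many worm genes that follow each other closely on a strand are transcribed together as operons, and whether these genes are was not analysed here, so the data do not show which of them the site serves.

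Among the structural subunit genes, pbs-4 (WBGene00003950, chromosome I, plus strand) had the strongest summit, at -117 bp (peak 3908528 to 3908714). Its signal value was 40.5 in replicate 1, 104 in replicate 2 and 144 in the pooled list, at ranks of 38, 35 and 34. Its order was nearly the same in every list. No other protein-coding gene had a window over this summit, and the nearest 5′ end on that side, that of magu-3, lay at -3539 bp.

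The pbs-7 site (WBGene00003953, chromosome I, minus strand) lay at -113 bp (peak 8696321 to 8696497). Its signal value was 46.6 in replicate 1, 85.1 in replicate 2 and 131 in the pooled list. It was the highest of the beta subunit genes in replicate 1, at rank 25, and ranked 58 in replicate 2. A much weaker line at -774 bp was present in the pooled list (5.35) and in replicate 2 (6.01) and stayed below the threshold.

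At pbs-3 (WBGene00003949, chromosome II, minus strand) the summit lay at -130 bp (peak 4955392 to 4955721). Its signal value was 13.3 in replicate 1, 53.0 in replicate 2 and 67.1 in the pooled list, at ranks of 660, 168 and 200. It was the only one of the 6 summits inside another gene: it fell in the 3′ UTR of ulp-2, which encodes a ubiquitin-like protein protease and ends 22 bp before pbs-3 on the same strand. The 5′ ends of ulp-2 were far off, the closest at -1684 bp from that of pbs-3, so no other promoter window covered the summit. Whether ulp-2 and pbs-3 are transcribed together was not analysed here, as for K05C4.2 and pbs-5.

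The weakest site was at pbs-6 (WBGene00003952, chromosome III, minus strand), at -155 bp (peak 8244082 to 8244411). Its signal value was 2.99 in replicate 1, 31.7 in replicate 2 and 35.6 in the pooled list. Replicate 2 ranked it 676 and replicate 1 only 13967, which is 62.5% of the way down that list. The −log10 of the q-value was 1.23 in replicate 1, where the other 5 sites stood at the ceiling of 3.74. The site was thus high in replicate 2 and low in replicate 1.

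**Figure D2:**
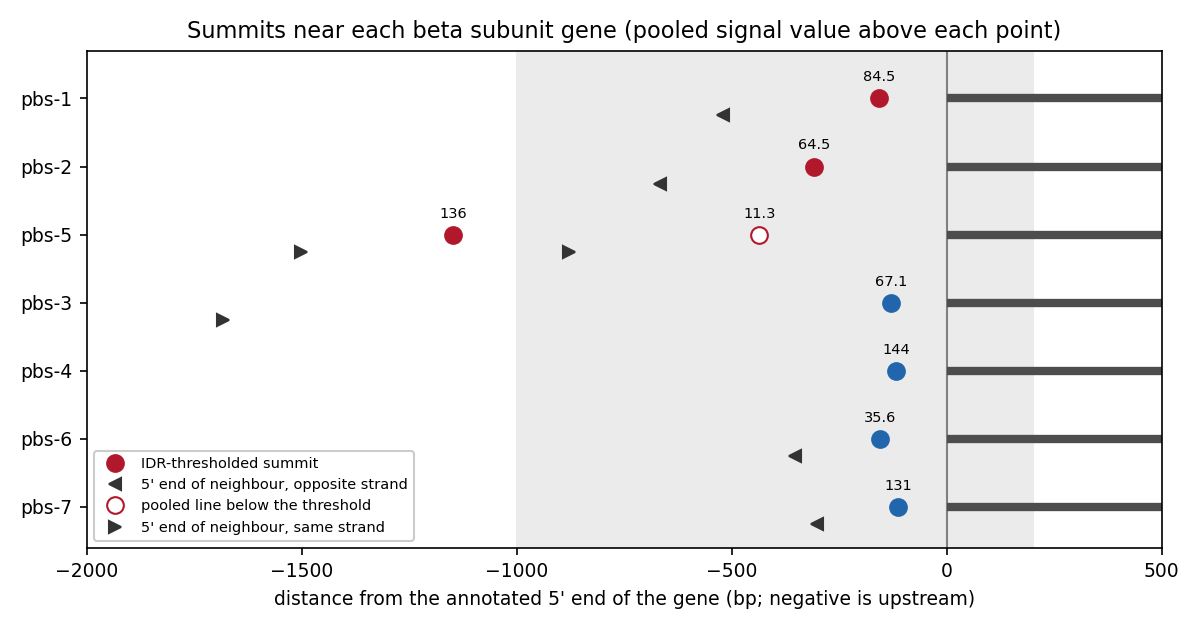
Position of summits relative to the 5′ end of each gene in bp (negative is upstream; dark bars are the genes, the grey band is the promoter window, triangles the 5′ ends of the nearest upstream neighbour). Filled points passed the threshold (red catalytic, blue structural), the open point is a pooled line below it, and numbers are pooled signal values: 5 of the 6 summits in the window lie between -200 and -100 bp, and the pbs-5 site lies outside at -1148 bp.

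The replicates placed the 6 window sites close to each other but did not rank all of them alike. A summit lay within 50 bp of the pooled summit in both replicates at all 6 genes, a distance for which no share of all thresholded peaks is given. The 2 replicate summits were 3 to 56 bp apart, beside a median of 30 bp over the 1513 thresholded peaks matched in both within 100 bp. Those 1513 were 85.1% of all thresholded peaks, and that list was itself derived from these replicates. The ratio of replicate 2 to replicate 1 signal, whose scales differ, was 1.80 at pbs-1, 1.83 at pbs-7, 2.56 at pbs-4, 3.97 at pbs-3, 6.06 at pbs-2 and 10.6 at pbs-6. Over the 1513 matched peaks the median ratio was 2.61 and the interquartile range 1.84 to 3.91. The pbs-3, pbs-2 and pbs-6 ratios were above this range, those of pbs-1 and pbs-7 just below it, and that of pbs-4 inside it. A higher ratio than at pbs-2 was found at 10% of matched peaks, and a higher one than at pbs-6 at 1.26%. Taking the 1778 strongest lines of each replicate alone, 6 of 7 genes had a promoter summit in replicate 2 (7.67% of all genes) and 4 of 7 in replicate 1 (6.81% of all genes), where pbs-2, pbs-5 and pbs-6 had none.

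**Figure D3:**
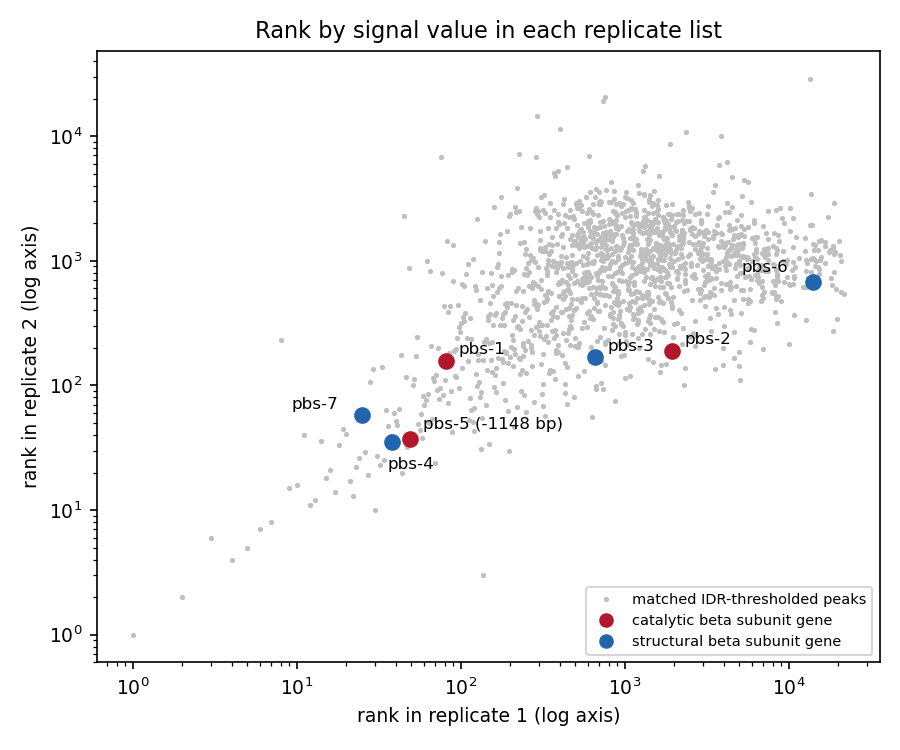
Rank by signal value in replicate 1 against replicate 2 (log axes, rank 1 strongest) for the 1513 thresholded peaks matched in both lists (grey) and the beta subunit sites (red catalytic, blue structural). The pbs-4, pbs-7, pbs-1 and pbs-5 sites rank within the first 158 lines of both lists, while pbs-6 ranks 13967 in replicate 1 and 676 in replicate 2.

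Where a thresholded summit was present in the window, the signal values of catalytic subunit genes lay inside the range of the structural ones in each list. A promoter summit was present at 2 of 3 catalytic and 4 of 4 structural genes. The pooled signal values were 64.5 and 84.5 for the catalytic genes and ran from 35.6 to 144 for the structural ones, with a median of 74.5 and 99.1. When the site at -1148 bp stood in for pbs-5, the catalytic values were 64.5, 84.5 and 136 and their median 84.5. With the line inside its window in its place, at 11.3, the median was 64.5, and pbs-5 lay below all structural genes in the pooled list and, at 5.20, in replicate 2. In replicate 1 the pbs-2 and pbs-1 values of 8.36 and 30.1 lay inside the structural range of 2.99 to 46.6, and in replicate 2 those of 50.7 and 54.0 lay inside 31.7 to 104. The pooled distances were -157 and -308 bp for pbs-1 and pbs-2 and ran from -113 to -155 bp for the structural genes. The groups overlapped in distance in both replicates: pbs-1 at -155 bp was nearer than pbs-3 (-169 bp) and pbs-6 (-170 bp) in replicate 1, and at -158 bp nearer than pbs-6 (-188 bp) in replicate 2. No test was made, since genes are not replicates of a condition.

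The median distance of the 6 summits from the 5′ end was -142.5 bp. All but that of pbs-2 lay between -200 and -100 bp, a band chosen with their positions known, where 351 of the 1547 genes with a promoter summit (22.7%) had theirs. The interquartile range of those genes was -412 to -132 bp, with a median of -237 bp. The 5′ ends are annotated transcript starts, which in worms are often sites of trans-splicing rather than of initiation.

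At 4 of the 6 genes the summit was also in the window of another protein-coding gene, in each case one starting on the other strand. Of all genes with a promoter summit, 51.5% shared theirs with another gene on either strand. The pbs-1 summit was at -363 bp from K08D12.3, that of pbs-2 at -358 bp from eif-6, which encodes translation initiation factor 6, that of pbs-6 at -198 bp from cids-1 and that of pbs-7 at -189 bp from F39H11.1. In each of these pairs the pbs gene had the 5′ end nearer to the pooled summit. In replicate 2 the pbs-6 summit, at -188 bp, lay nearer to cids-1, whose 5′ end was at -353 bp. The windows do not show which gene of a pair a site serves. The sequence between the 5′ ends was short, from 301 bp at pbs-7 and 352 bp at pbs-6 to 519 bp at pbs-1 and 665 bp at pbs-2.

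The stronger beta subunit peaks were narrow. The pbs-1, pbs-4 and pbs-7 peaks were 104, 187 and 177 bp wide, and the peak upstream of pbs-5 was 191 bp wide, while those of pbs-2, pbs-3 and pbs-6 had the usual 330 bp. Of all 1778 thresholded peaks 5.91% were narrower than usual, but of the 222 strongest, down to the rank of pbs-2, 45.0% were. Narrow width thus went with high signal value across the list as a whole. The share of G and C in the 101 bp around the summit was 39.6% to 42.6% at 5 of the 6 genes and 49.5% at pbs-3, beside a median of 45.5% and an interquartile range of 38.6% to 50.5% over all thresholded peaks.

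The SKN-1 consensus, an A or T, again an A or T, and then TATCAT or TGTCAT, was searched on both strands, and a peak was counted when a match was centred no more than 50 bp from its summit. Only pbs-1 of the 6 held it, with its centre 15.5 bp from the summit, while 12.4% of all thresholded peaks and 24.3% of the 222 strongest did. The site upstream of pbs-5 held it at 2 places, 36.5 and 46.5 bp from its summit. The core (ATCAT or GTCAT), which is part of the consensus, was found at 5 of the 6 genes, all but pbs-3, and at the site upstream of pbs-5. It was found in 41.7% of all thresholded peaks and 54.1% of the 222 strongest. The centres of the core nearest to each summit lay 11 bp (pbs-1), 17 bp (pbs-2 and pbs-7), 12 bp (pbs-4) and 19 bp (pbs-6) away. At pbs-4 and pbs-7 there were 2 overlapping cores, 3 bp from centre to centre. An AP-1-like site (TGACTCA or TGAGTCA, 1.35% of all peaks) and a GATA site (TGATAA, 14.3%) were found within 50 bp of none of the 7 sites. A match describes the letters and is not evidence of a contact, and a lack of matches within this window says nothing of the factor.

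Nearly all genes of the other proteasome subcomplexes also had summits. All 7 alpha subunit genes (pas-1 to pas-7), all 8 genes of the 19S base, the ring of ATPases and scaffolds that unfolds substrates, and 8 of 9 genes of the 19S lid, which removes ubiquitin, had a promoter summit. The median signal value was 97.3 for alpha, 143 for base and 160 for lid genes with a summit, against 75.8 for beta, and the ranges overlapped throughout: 48.0 to 165, 93.4 to 352, 58.6 to 343 and 35.6 to 144. The strongest were pas-4 (165) and pas-1 (127), rpt-2 (352) and rpn-1 (225), and rpn-3 (343) and rpn-12 (257). Of the ubiquitin receptor genes, rpn-13 had a summit (130) and rpn-10 did not, though like pbs-5 it had one beyond the window, at -1389 bp. These are descriptions of a few genes each, and no difference between subcomplexes was tested.

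**Figure D4:**
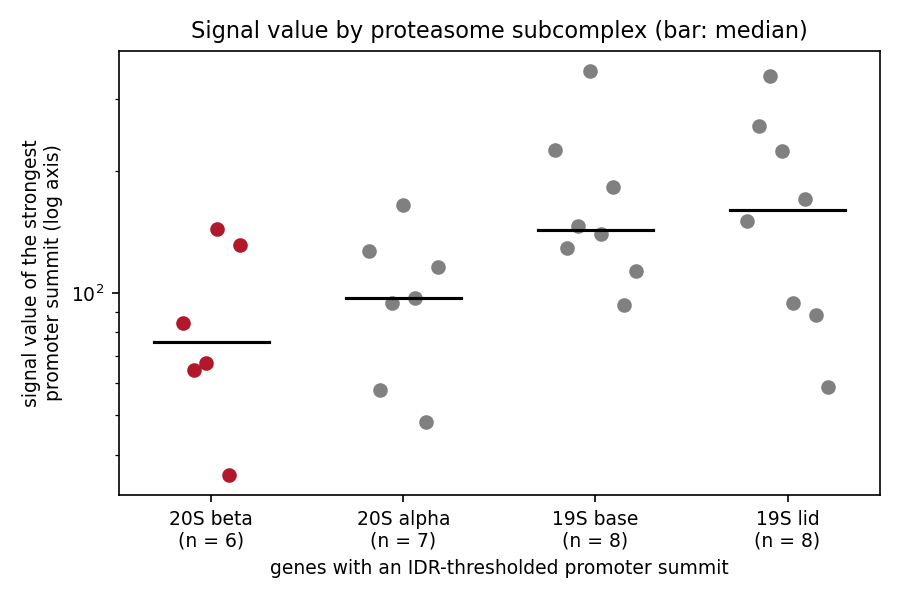
Signal value (log axis) of the strongest thresholded promoter summit of each gene that had one, by proteasome subcomplex, 1 point per gene with a bar at the median. The beta subunit genes (red, median 75.8) overlap the alpha (97.3), base (143) and lid (160) genes, and pbs-6 at 35.6 is the lowest point.

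By signal value in the pooled and both replicate lists, the gene most like pbs-4 was another proteasome gene, rpt-3, at a Euclidean distance of 0.08 on the log2 scale over the 3 lists. The nearest to pbs-1, pbs-2, pbs-3, pbs-6 and pbs-7 were ints-4 (0.14), pcn-1 (0.15), F09G2.2 (0.05), erfa-3 (0.13) and E01A2.1 (0.25). Likeness over 3 lists, of which the pooled one contains the others, is a weak measure. The genes pbs-3 and pbs-4 were compared with 1362 others, and pbs-1, pbs-2, pbs-6 and pbs-7, whose summits were shared, with 1361. Genes that share a summit with a pbs gene are not among the nearest named, though that summit has the same values for both.

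The count moved with the reach of the window only through pbs-2 and pbs-5. With an upstream reach of 200 or 300 bp, 5 of 7 genes had a thresholded summit, from 400 to 1100 bp 6 of 7, and from 1200 bp on all 7. At 2000 bp all 7 had one, beside 10.1% of all genes. In the stronger part of the thresholded list, its 889 highest peaks, 5 of 7 genes had a promoter summit (4.25% of all genes), and pbs-6 was lost.

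**Figure D5:**
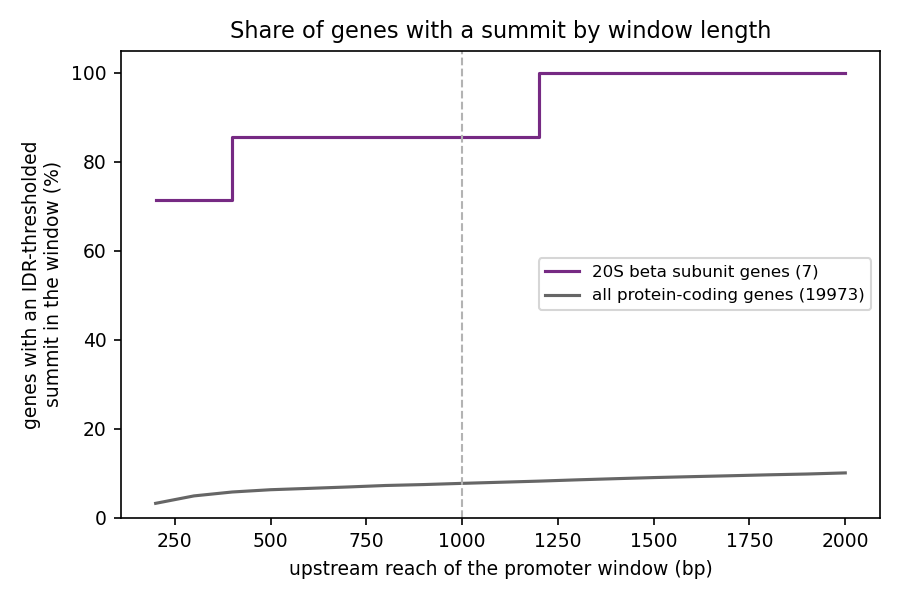
Share of genes (%) with a thresholded summit as the promoter window reaches farther upstream (bp), for the 7 beta subunit genes (purple) and all 19973 protein-coding genes (grey), with the window used marked by a dashed line. The purple line steps from 5 to 6 genes at 400 bp (pbs-2) and to 7 at 1200 bp (pbs-5), while the grey line rises slowly from 3.26% to 10.1%.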

How the data were processed

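SKN-1 ChIP-seq peak lists on ce11 (WBcel235) were used: 1 for each of 2 replicates, a pooled list and an IDR-thresholded list. The README texts deposited with the samples say that the replicate and pooled lists came from alignments and a control, hold peaks and background, and are narrowPeak files, and the thresholded list was derived from those 3. The sources used here name no aligner, no peak caller and no IDR threshold. The deposited signal value is a score whose unit the authors do not name. It was used to describe and rank peaks within a list. The q-values are deposited as −log10. The 1778 thresholded peaks kept their pooled signal values. The lists hold no read counts, so the depth of each sample is unknown and no intervals can be given.

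Summits were computed from the deposited offsets with Python 3.11.15 and pandas 2.3.3. Genes and 5′ ends came from Ensembl release 115 and sequence and product names from RefSeq. Summits of different lists were matched within 100 bp. The window, matching and motif functions were tested on simulated data. No test across genes was made. Members, lists and motifs were chosen with earlier results of these data known. Besides the 7 genes, those named are neighbours, the 2 strongest of each subcomplex and the nearest in signal value, plus rpn-10 and rpn-13. The ce10 lists were not used.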

Additional observations from a re-analysis of the deposited data

How the results depend on the processing

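Counts over all 7 genes kept within 1.5 times the 6 reported under every alternative tried: windows of 200 to 2000 bp (5 to 7), the nearest gene only (6), any overlap of the peak (6), the stronger part of the list (5) and without replicate 1 or replicate 2 (6 and 4). For the nearest-gene and overlap rules no share of all genes is given, so those counts cannot be read against a background. Reaches other than 500 and 2000 bp were added after the pbs-5 value was seen. For the catalytic genes the count of 2 was between 1 and 2 when a replicate was left out, the 1 being pbs-1 without replicate 2. It was 1 with windows of 200 and 300 bp, which leave out the pbs-2 summit by construction. From a reach of 1200 bp on it was 3 of 3, through the site upstream of pbs-5, beside 8.25% of all genes at 1200 bp. The SKN-1 consensus was held by 2 of the 6 peaks in place of 1 when a match anywhere in the peak counted. The second was pbs-6, 102.5 bp from its summit. By that rule 24.0% of all thresholded peaks held the consensus. The core stayed at 5 of the 6 peaks within 100 bp of the summit and anywhere in the peak. The share of all thresholded peaks with the core rose from 41.7% within 50 bp to 59.5% and 72.7% by these wider rules. Matching within 50 or 200 bp left 6 of 6 summits matched in both replicates, as within 100 bp, where 85.1% of all thresholded peaks were. No share of all thresholded peaks is given at 50 or 200 bp, so the counts there cannot be read against a background. Signal values of single genes came out lower in each replicate list, which has its own scale. No paired analysis was possible because there is 1 group. With no reads or depth in the lists, the counting error of each signal value is unknown.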

Other observations

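A further sequence, the core followed by C (ATCATC or GTCATC), was searched after the sequences at the summits were seen. It was found within 50 bp of the summit at pbs-1, pbs-2, pbs-4 and pbs-7 and at the site upstream of pbs-5, and not at pbs-3 or pbs-6. Of all thresholded peaks 23.4% held it, and of the 222 strongest 37.8% did. Since it was picked from these same sites, its count among them is a description and was not tested.

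Among the proteasome genes listed, pbs-5 and rpn-10 had no summit in the promoter window but one past its upstream edge, at -1148 and -1389 bp. The lid gene dss-1, named after its value was seen, had none within 2000 bp.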
